A study of Homo sapiens with 10 samples.

Results

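NRF2, encoded by NFE2L2, is the transcription factor that switches on genes against oxidants and reactive chemicals. Unstressed cells degrade it through KEAP1, an adaptor that marks NRF2 for ubiquitination. When cysteines of KEAP1 are modified, NRF2 accumulates and binds antioxidant response elements with small MAF proteins. Its targets make and recycle glutathione and thioredoxin, supply NADPH, and handle quinones, haem and iron. In lung fibroblasts this system is studied because oxidants and NRF2 both take part in fibrotic responses.

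The 32 genes described here are NFE2L2 and KEAP1, the NRF2 activator SQSTM1, and enzymes of the glutathione, thioredoxin, peroxiredoxin, pentose phosphate, superoxide, aldo-keto reductase and ferritin systems. They were chosen by name, and 28 of the 32 were found among the 14054 genes of the count table. Expression of SQSTM1, ME1, AKR1C2 and AKR1C3 was not analysed here. Of the 28, 24 had enough counts to be tested.

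The 10 libraries hold RNA of MRC5, a human lung fibroblast line. In 5 of them it came from cells given supernatant of A549 cells that had not been stretched (static medium), and 5 from cells given supernatant of stretched A549 cells (stretch medium). The A549 line derives from a lung adenocarcinoma, serves as a model of alveolar epithelium and is known for a KEAP1 mutation and constantly active NRF2. The sample labels speak of 24 hours and the series design of 6 hours, so the time of exposure is not settled here. No library of MRC5 cells without A549 supernatant was analysed here, so both groups received A549 supernatant. Libraries are numbered as in their titles, odd for static and even for stretch medium. Whether each library stands for its own culture is not stated in the labels, and the p-values therefore reflect only library-to-library spread, which may be technical.

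Total counts ran from 4231653 to 8455073, and 3 counts, used here as a floor, corresponded to 0.354 to 0.679 CPM (the usual depth-scaled count, here with TMM library sizes). The 13 fibroblast markers checked were all in the table, and their summed level was 14931 to 16826 CPM with static medium and 13066 to 16908 CPM with stretch medium. Of 19 markers of A549 and lung epithelium, 11 were in the table, summing to 41.5 to 52.7 CPM and 45.5 to 55.9 CPM. The epithelial cadherin CDH1 was at a mean of 0.161 CPM and the NRF2-driven dehydrogenase ALDH3A1 at 0.0985 CPM. The reductase AKR1B10, abundant in A549 cells, was at 3.01 CPM. Highest of this list were the keratins KRT18 and KRT19, at means of 12.9 and 12.3 CPM. KRT18 alone among them had an unadjusted p under 0.05 (edgeR, 0.0384, adjusted 0.276), with a log2 fold change of 0.40, higher with stretch medium. Among the fibroblast markers COL1A1 alone did (edgeR, 0.0357, adjusted 0.273), with a log2 fold change of 0.22, also higher with stretch medium. Of the leukocyte markers 3 of 5 were in the table, summing to 195 to 209.8 CPM and 183 to 233 CPM. Nearly all of this was CD68, at a mean of 201 CPM, which fibroblasts also express, while CD14 was at 1.24 CPM and LYZ at 1.25 CPM. Of the endothelial markers 3 of 4 were in the table, at 2.22 to 9.38 CPM and 5.37 to 9.04 CPM. In bulk RNA, fewer cells of a type and less RNA per cell cannot be told apart.

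No member passed the threshold. In edgeR's quasi-likelihood test, 0 of the 24 members and 0 of the 10968 genes tested (0%) had an adjusted p under 0.05, DESeq2 called 0 of the 23 members to which it gave an adjusted p, against 2.86% of all genes, and limma-voom called 0 of 24, against 0.00912% of all genes. At an unadjusted p under 0.05 in edgeR there were 4 members, KEAP1, SRXN1 and AKR1B1 higher and GPX4 lower with stretch medium. That is 16.7% of the members, beside 16.4% of all genes tested, so the members' share lay near the background. There were 12 members above and 12 below a log2 fold change of 0. The median was 0.0057, against 0.00035 over all genes tested. The median size of the change without its sign was 0.12 for the members and 0.17 for all genes tested. The members were also more abundant (median 318 against 29.1 CPM), with a smaller median SE (0.12 against 0.16). How far this accounts for the smaller size was not tested.

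**Figure D1:**
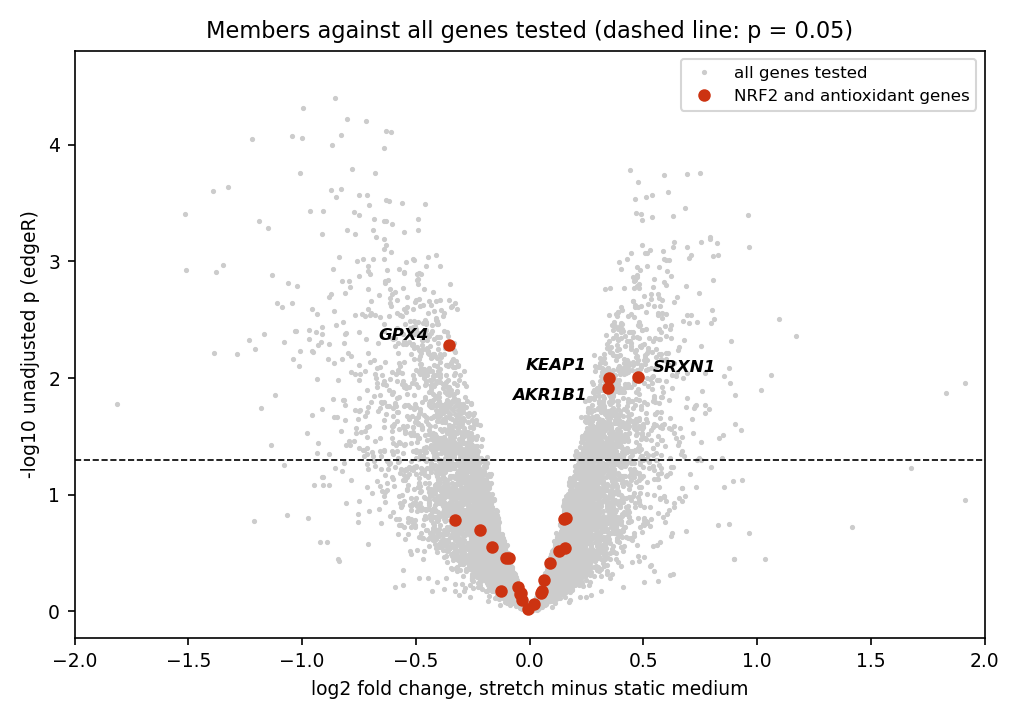
Log2 fold change of stretch minus static medium (x axis) against −log10 of the unadjusted edgeR p (y axis), for all 10968 genes tested (grey; 5 lie beyond the plotted range) and the 24 members (red). The members lie within the cloud of all genes, and 4 of them, KEAP1, SRXN1, AKR1B1 and GPX4, lie above the dashed line, which marks an unadjusted 0.05.

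The promoters of these genes are shown first, since the element that NRF2 binds is the link between the regulator and its targets. The element was searched as TGACNNNGC on both strands in the 250 bases before each transcription start listed by RefSeq (GRCh38.p14). Windows were found for 26 of the 32 members, and 6 of these, 23.1%, held a match: KEAP1, GCLM, PGD, TXNRD1, GSTP1 and ME1. Of all 27305 genes with windows, 13.2% held one, and of all 35116 windows 10.9%. A match is a description of letters and not a bound site. Known elements of NRF2 targets such as HMOX1 and NQO1 lie farther from the start than this window. No window was found for HMOX1, SOD1, FTH1, PRDX1, PRDX6 and GSR, so these were not searched. The matches of the 3 members that could be tested are shown, each with 10 bases on either side. The capitals mark the element, and each is written on the strand that reads TGACNNNGC.
KEAP1, first match: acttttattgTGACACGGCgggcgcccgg
KEAP1, second match: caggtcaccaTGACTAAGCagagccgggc
GCLM: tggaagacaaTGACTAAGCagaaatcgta
PGD: agcacctagaTGACATTGCcccggcgagg
The KEAP1 matches lie at chr19:10502807-10502835 (minus strand, as the gene) and chr19:10502784-10502812 (plus strand). That of GCLM lies at chr1:93909446-93909474 (plus strand, opposite to the gene) and that of PGD at chr1:10398853-10398881 (minus strand, opposite to the gene). None of the 4 also holds TGANTCA, the core bound by AP-1 factors, which overlaps the NRF2 element in the matches of ME1 and GSTP1. The log2 fold changes of the 3 genes were 0.35, -0.16 and 0.15, in the order KEAP1, GCLM and PGD. The 95% intervals of GCLM (-0.48 to 0.15) and PGD (-0.068 to 0.37) spanned 0, so their directions are not settled.

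For context, longer stretches are given for PGD, whose element lies away from annotated exons, and for GPX4, AKR1B1 and SRXN1, which had an unadjusted p under 0.05. Each is the longest part of a 250-base window that no GENCODE exon covers, on the strand of the gene. Capitals mark TGACNNNGC on either strand and the GC box GGGCGG on either strand, which 42.6% of all windows held.
PGD: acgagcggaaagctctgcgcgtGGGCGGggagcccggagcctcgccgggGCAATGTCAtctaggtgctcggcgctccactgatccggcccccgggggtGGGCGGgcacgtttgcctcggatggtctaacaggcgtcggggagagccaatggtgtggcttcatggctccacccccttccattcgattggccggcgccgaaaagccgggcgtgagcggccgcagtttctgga
GPX4: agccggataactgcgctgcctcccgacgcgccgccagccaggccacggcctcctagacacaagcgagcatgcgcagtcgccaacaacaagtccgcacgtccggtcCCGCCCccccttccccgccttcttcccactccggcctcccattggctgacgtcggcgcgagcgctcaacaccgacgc
AKR1B1: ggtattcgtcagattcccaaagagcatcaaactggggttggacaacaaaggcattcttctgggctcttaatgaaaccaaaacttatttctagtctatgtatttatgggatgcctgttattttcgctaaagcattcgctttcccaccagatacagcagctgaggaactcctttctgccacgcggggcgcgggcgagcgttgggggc
SRXN1: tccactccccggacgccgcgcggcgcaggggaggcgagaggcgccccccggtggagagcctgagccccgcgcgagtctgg
These run over chr1:10398814-10399043 (plus strand), chr19:1103744-1103925 (plus), chr7:134459285-134459489 (minus) and chr20:653371-653450 (minus). The stretch of PGD holds the element, here read from its other strand, between 2 GC boxes. That of GPX4 holds 1 GC box, and those of AKR1B1 and SRXN1 hold neither motif. AKR1B1, but not SRXN1, has a GC box in a full 250-base window, outside the stretch shown. Of the members with windows, 80.8% held a GC box in a full window, against 46.2% of all genes with windows.

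The regulator and its inhibitor came first in the comparison. NFE2L2 (chromosome 2, 177227595 to 177392697) was at 318, 337, 302, 320.3 and 306 CPM in static libraries 1, 3, 5, 7 and 9, and at 310.0, 390.5, 266, 276 and 395 CPM in stretch libraries 2, 4, 6, 8 and 10. The stretch libraries spread around the static ones, with 4 and 10 above and 6 and 8 below all of them. The estimate for NFE2L2 was 0.048 on the log2 scale (95% interval -0.21 to 0.30, edgeR, adjusted p = 0.878). It was -0.025 without stretch 4 and -0.029 without stretch 10. NFE2L2 overlaps AGPS on the opposite strand, and the use of strand in counting is not given in the sources used here.

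KEAP1, the inhibitor of NRF2 (chromosome 19, 10486120 to 10503741), was at 54.7, 57.2, 68.7, 52.9 and 75.6 CPM in the static libraries and at 81.9, 79.5, 80.9, 82.7 and 68.9 CPM in the stretch libraries, in the same order of numbers. The stretch libraries other than 10 lay above every static library, and stretch 10 lay inside the static range. Means were 61.8 ± 9.89 and 78.8 ± 5.64 CPM (SD, n = 5 each), a log2 fold change of 0.35 ± 0.12 (SE) with an interval of 0.10 to 0.60. In edgeR the unadjusted p was 0.0100 and the adjusted p 0.173, and DESeq2 gave an adjusted p of 0.0854. Its unadjusted p stayed under 0.05 in all 10 fits that left out 1 library. These fits share most libraries with the fit that singled KEAP1 out, so they are no separate evidence.

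**Figure D2:**
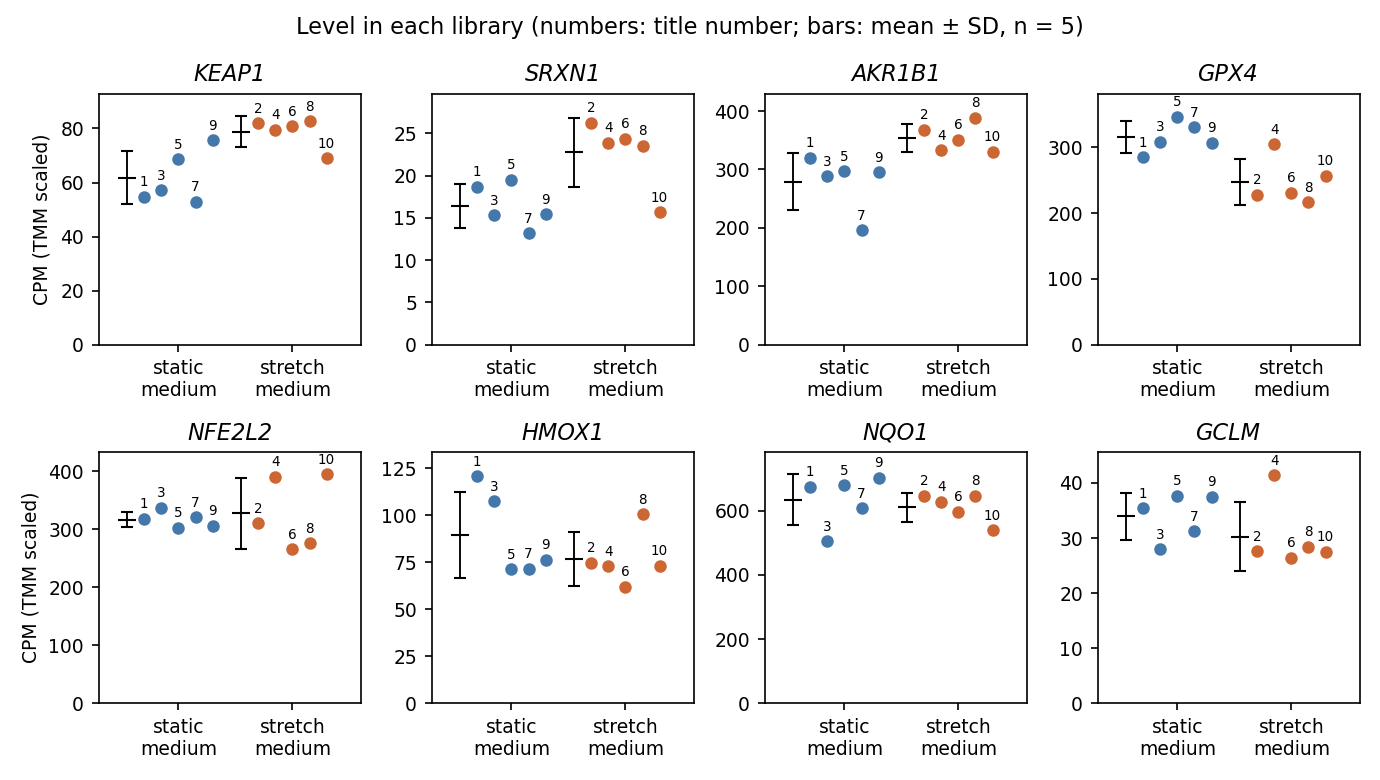
CPM in each library (points, with the title number) for 8 members, with static medium in blue and stretch medium in orange; bars are mean ± SD (n = 5) and the y axes start at 0. KEAP1, SRXN1 and AKR1B1 sit higher and GPX4 lower with stretch medium, while NFE2L2, HMOX1, NQO1 and GCLM overlap widely.

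Among the classical detoxifying targets, haem oxygenase HMOX1 and the quinone reductase NQO1 are the usual readouts of NRF2 activity. HMOX1 (chromosome 22, 35380361 to 35394214) was at 121, 108, 71.2, 71.7 and 76.3 CPM with static medium and 74.9, 72.9, 61.9, 101 and 73.1 CPM with stretch medium. Static 1 and 3 and stretch 8 were high and the other 7 libraries lay close together, so the groups overlapped. The estimate for HMOX1 was -0.22 on the log2 scale (-0.57 to 0.13, edgeR, adjusted p = 0.528), and it was -0.092 without static 1. NQO1 (chromosome 16, 69706996 to 69726951) was at 675, 506, 680.3, 608 and 703 CPM with static medium and 646, 629, 597, 646 and 539 CPM with stretch medium. The stretch libraries all lay within the static range. Its log2 fold change was -0.053 (-0.28 to 0.17), an interval that spans 0. OSGIN1, an oxidative stress-induced growth inhibitor, was low, at 4.37 ± 1.83 and 3.98 ± 1.09 CPM, and its interval of -0.73 to 0.49 was wide. OSGIN1 overlaps AC009119.2 on the same strand, and shared reads were not tested.

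Of the aldo-keto reductases, AKR1B1, which reduces glucose and lipid aldehydes (chromosome 7, 134442350 to 134459284), was at 319.8, 289, 297, 196 and 295 CPM with static medium and 368, 333, 351, 389 and 331 CPM with stretch medium. Every stretch library lay above every static one, and AKR1B1 was the only 1 of the 24 members with groups that did not overlap (4.17%, beside 3.72% of all genes tested). Static 7 lay far below the rest. AKR1B1 had a log2 fold change of 0.34 ± 0.12 (0.085 to 0.60), with an adjusted p of 0.185 in edgeR and 0.103 in DESeq2, and it was 0.24 without static 7. AKR1C1, which reduces steroids and lipid aldehydes, was at 338 ± 44.7 and 369.5 ± 54.7 CPM, or 0.13 (-0.13 to 0.39). Its coding sequence is close to that of AKR1C2, so its counts may include reads of that gene. Of the 5 detoxifying genes tested, 2 lay above 0 and 3 below, with a median of -0.053.

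Glutathione is built in a first step by glutamate-cysteine ligase, whose catalytic subunit is GCLC and whose modifier subunit is GCLM. GCLC was at 31.6, 41.7, 44.4, 41.4 and 28.6 CPM with static medium and 17.9, 42.7, 19.5, 27.4 and 43.0 CPM with stretch medium. Stretch 2 and 6 were low, stretch 4 and 10 were near the highest static libraries, and the log2 fold change was -0.33 (-0.80 to 0.15). It was -0.19 without stretch 2 and -0.20 without stretch 6. Without stretch 4 or stretch 10 it was -0.49, with an unadjusted p in edgeR of 0.0453 and 0.0477 and an adjusted p of 0.253 and 0.330. GCLM (chromosome 1, 93885205 to 93909456) was at 35.4, 27.9, 37.7, 31.2 and 37.5 CPM and 27.6, 41.4, 26.4, 28.4 and 27.5 CPM. Among the stretch libraries 4 lay close together near the lowest static value, and stretch 4 lay above every static library. The log2 fold change of GCLM was -0.16 (-0.48 to 0.15, edgeR, adjusted p = 0.610), and it was -0.30 without stretch 4 (adjusted p = 0.228). Glutathione reductase GSR, which returns oxidised glutathione to its reduced form, was at 283 ± 12.5 and 301 ± 37.6 CPM, or 0.091 (-0.13 to 0.31).

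GPX4, the selenoenzyme that reduces lipid hydroperoxides in membranes and restrains ferroptosis (chromosome 19, 1103926 to 1106791), was at 285, 308, 347, 330.5 and 307 CPM with static medium and 228, 304, 231, 216 and 257 CPM with stretch medium. All stretch libraries but 4 lay below every static library, and stretch 4 lay within the static range. Means were 315 ± 23.7 and 247 ± 35.3 CPM (SD, n = 5 each), a log2 fold change of -0.35 ± 0.11 with an interval of -0.58 to -0.12. This was the smallest p among the members, unadjusted 0.00516 and adjusted 0.146 in edgeR, with an adjusted p of 0.0645 in DESeq2. Without stretch 4 edgeR's adjusted p was 0.0682, the lowest with 1 library left out, and the highest was 0.282, without stretch 8. GPX1, the cytosolic glutathione peroxidase, lay on the other side, at 266 ± 42.5 and 296 ± 56.6 CPM, or 0.15 (-0.14 to 0.45). In the glutathione group, 2 of 5 tested members lay above 0 and 3 below, with a median of -0.16.

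In the thioredoxin and peroxiredoxin group, sulfiredoxin SRXN1, which repairs overoxidised peroxiredoxins, had the only unadjusted p under 0.05 of the 4 genes tested. SRXN1 (chromosome 20, 646615 to 653370) was at 18.7, 15.3, 19.5, 13.2 and 15.4 CPM with static medium and 26.2, 23.9, 24.4, 23.5 and 15.7 CPM with stretch medium. Stretch 2, 4, 6 and 8 lay above every static library, and stretch 10 lay inside the static range. The log2 fold change of 0.47 ± 0.16 (0.13 to 0.82) was the highest of the 24, with an adjusted p of 0.170 in edgeR and 0.0861 in DESeq2. Stretch 10 was also the lowest of the stretch libraries for KEAP1. For AKR1B1 it was the lowest by little, at 331 CPM against 333 CPM in stretch 4. Without stretch 10 the log2 fold change of SRXN1 was 0.58 (adjusted p = 0.147, edgeR). Without static 7 that change was 0.40 (adjusted p = 0.340, edgeR).

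Thioredoxin TXN and the peroxiredoxins PRDX2 and PRDX6, which remove hydrogen peroxide and lipid peroxides, varied little between libraries. TXN ranged from 291 to 354 CPM with static medium and from 289.6 to 335 CPM with stretch medium, and its log2 fold change was -0.090 (-0.29 to 0.11). For PRDX2 the interval was -0.19 to 0.23 and for PRDX6 -0.25 to 0.17. PRDX2 overlaps HOOK2 on the same strand, where shared reads were likewise not tested. The standard deviation of log2 CPM within groups was 0.099 for TXN, 0.13 for PRDX2 and 0.13 for PRDX6, against a median of 0.25 over all genes tested. In this group 2 of 4 tested genes lay above 0 and 2 below, with a median of -0.011.

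The genes for PRDX1, PRDX3, thioredoxin reductase TXNRD1 and glutathione transferase GSTP1 held almost no counts and were not tested. GSTP1 had 3, 1, 1, 1 and 0 counts in the static and 3, 1, 0, 1 and 1 in the stretch libraries. TXNRD1 had 2, 6, 1, 8 and 3 counts in the static and 1, 2, 1, 1 and 3 in the stretch libraries. PRDX1 had at most 3 counts in any library, and PRDX3 at most 3 but for 15 in static 1. These genes are known to be widely expressed, and whether the assay or the counting missed their transcripts was not tested. Values this near the floor say nothing about a difference between media.

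**Figure D3:**
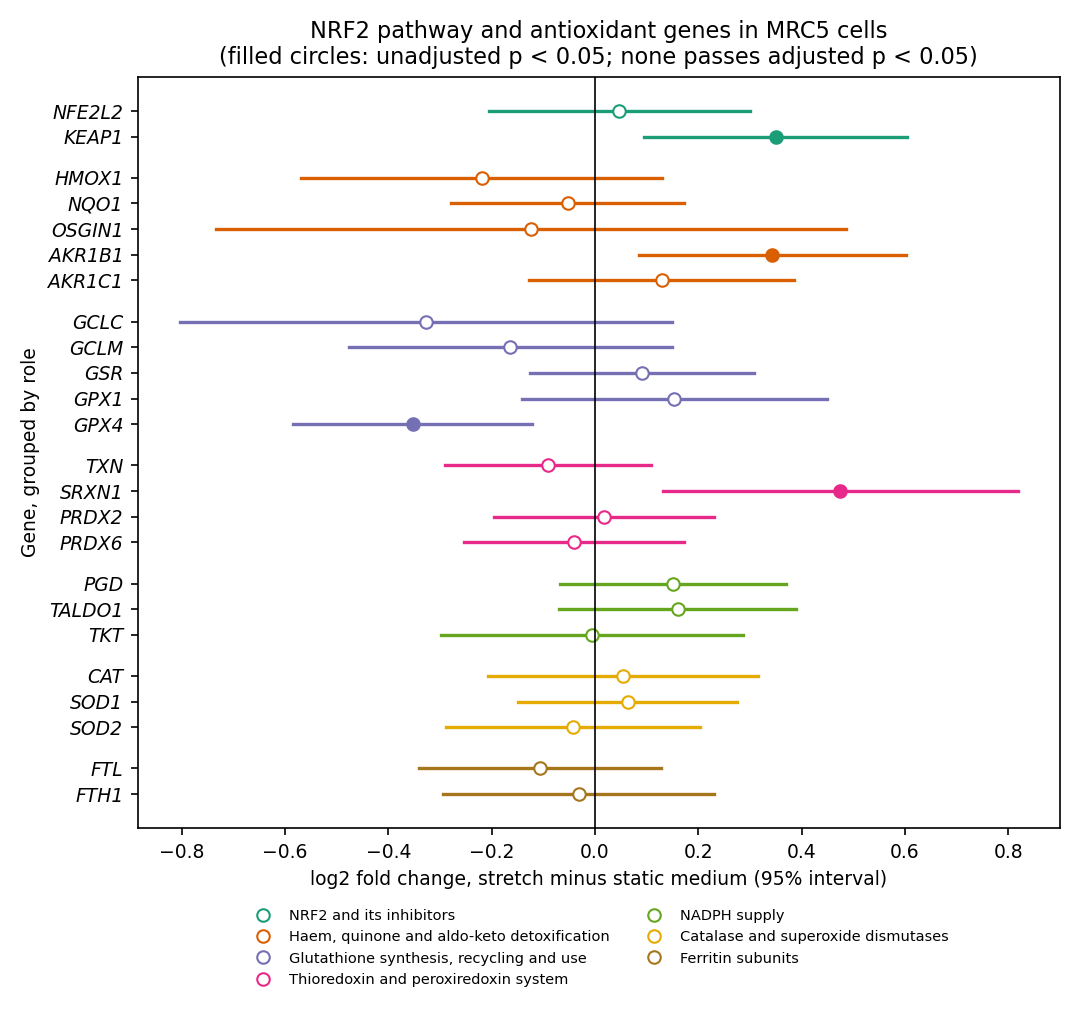
Log2 fold change of stretch minus static medium (x axis) with its 95% interval for the 24 tested members, grouped by role on the y axis; filled circles mark an unadjusted p under 0.05. Only the intervals of KEAP1, AKR1B1, SRXN1 and GPX4 leave out 0.

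The NADPH that reduces glutathione and thioredoxin comes in large part from the pentose phosphate pathway. PGD, the phosphogluconate dehydrogenase of its oxidative branch, was at 506 ± 61.3 and 561 ± 35.9 CPM, or 0.15 (-0.068 to 0.37). TALDO1 (transaldolase) and TKT (transketolase), of the non-oxidative branch, were at 0.16 (-0.069 to 0.39) and -0.0060 (-0.30 to 0.29). The stretch values of PGD, 521 to 614 CPM, lay within or above the static range of 409 to 567 CPM. No member of this group had an unadjusted p under 0.05.

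Enzymes that act on superoxide and hydrogen peroxide directly showed intervals on both sides of 0. Catalase CAT, a peroxisomal enzyme, was at 59.0 ± 8.26 and 61.2 ± 7.36 CPM, or 0.054 (-0.21 to 0.32). The cytosolic superoxide dismutase SOD1 was at 708 ± 45.7 and 740.1 ± 84.7 CPM, or 0.064 (-0.15 to 0.28). The mitochondrial SOD2, which NF-kB also drives, was at 565 ± 89.2 and 548 ± 56.4 CPM, or -0.043 (-0.29 to 0.20). SOD2 was matched through the identifier that GENCODE 29 gives that name, and it overlaps WTAP on the opposite strand.

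Ferritin stores iron in a shell of light (FTL) and heavy (FTH1) chains, and both genes are NRF2 targets whose translation is also repressed when iron is low. FTL (chromosome 19, 48965301 to 48966878) was at 4747, 4362, 5947, 5216 and 6338 CPM with static medium and 4337, 4852, 5717, 4953 and 4863 CPM with stretch medium. The stretch libraries lay within the static range but for stretch 2, just below it. The log2 fold change was -0.11 (-0.34 to 0.13). FTH1 (chromosome 11, 61959718 to 61967660) was at 4375, 4785, 5078, 6432 and 4649 CPM and 4069.7, 4743, 6301, 5036 and 4619 CPM. Static 7 and stretch 6 were the highest libraries, and the fold change of -0.032 had an interval of -0.29 to 0.23.

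The heavy chain has many processed pseudogenes, and 12 of them had rows of their own, 4 with enough counts to be tested. FTH1P7, on chromosome 13, held 541 to 1273 CPM with static medium and 631 to 1039.6 CPM with stretch medium. FTH1P10, on chromosome 5, held 505, 52.2, 603, 455 and 550.0 CPM in the static and 299.8, 408, 411, 272 and 86.0 CPM in the stretch libraries. It was lowest in static 3 and stretch 10, 1 library of each group. Pseudogene rows took 11.8% to 28.6% of all heavy chain counts in static and 14.5% to 23.9% in stretch libraries, and whether these hold reads of FTH1 itself was not tested. Summed over the copies, the level was 6496 ± 927 CPM with static medium and 6181 ± 799.6 CPM with stretch medium (SD, n = 5 each). With the copies merged before the fit, an alternative added after seeing the data, the log2 fold change of FTH1 was -0.072 (edgeR, adjusted p = 0.794).

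**Figure D4:**
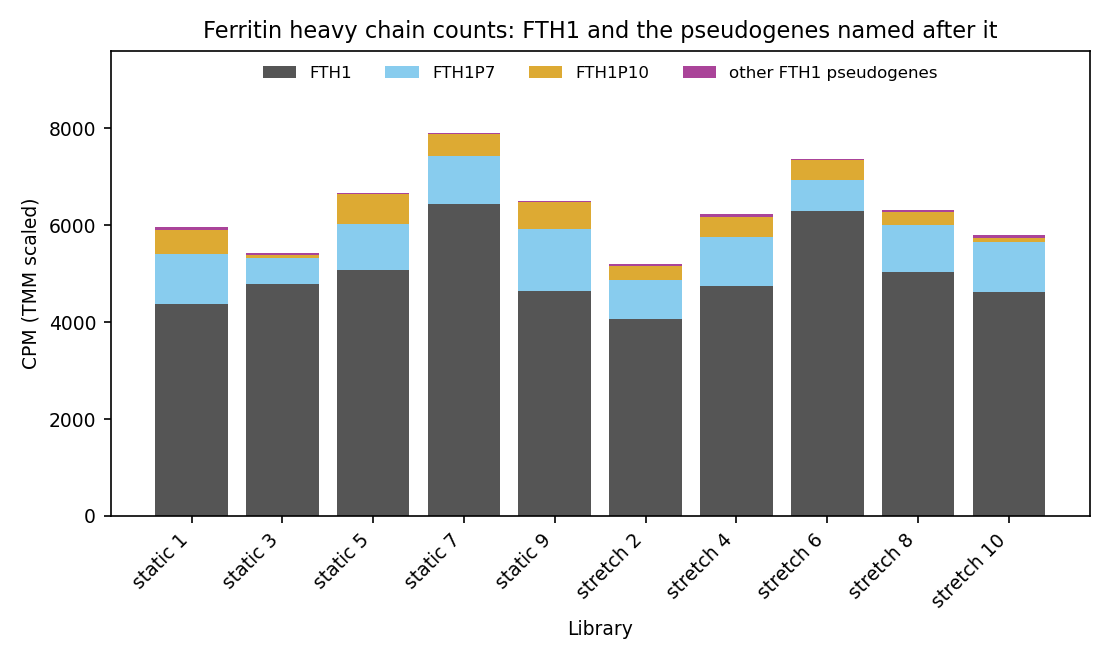
Stacked CPM of FTH1, FTH1P7, FTH1P10 and the other FTH1 pseudogenes (y axis, from 0) in each of the 10 libraries (x axis). The summed height runs from 5195 CPM in stretch 2 to 7904 CPM in static 7, and the FTH1P10 part is thin in static 3 and stretch 10.

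The mean of centred log2 CPM over the 24 ran from -0.091 (static 3) to 0.074 (static 5) in static libraries and from -0.051 (stretch 2) to 0.088 (stretch 4) in stretch libraries, so the groups overlapped. The median standard deviation of log2 CPM within groups was 0.19 over the members and 0.25 over all genes tested. Median levels were 318 CPM and 29.1 CPM, and the part of abundance in the spread was not tested. The most variable were OSGIN1 (0.48), the least abundant of the 24, and GCLC (0.46).

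**Figure D5:**
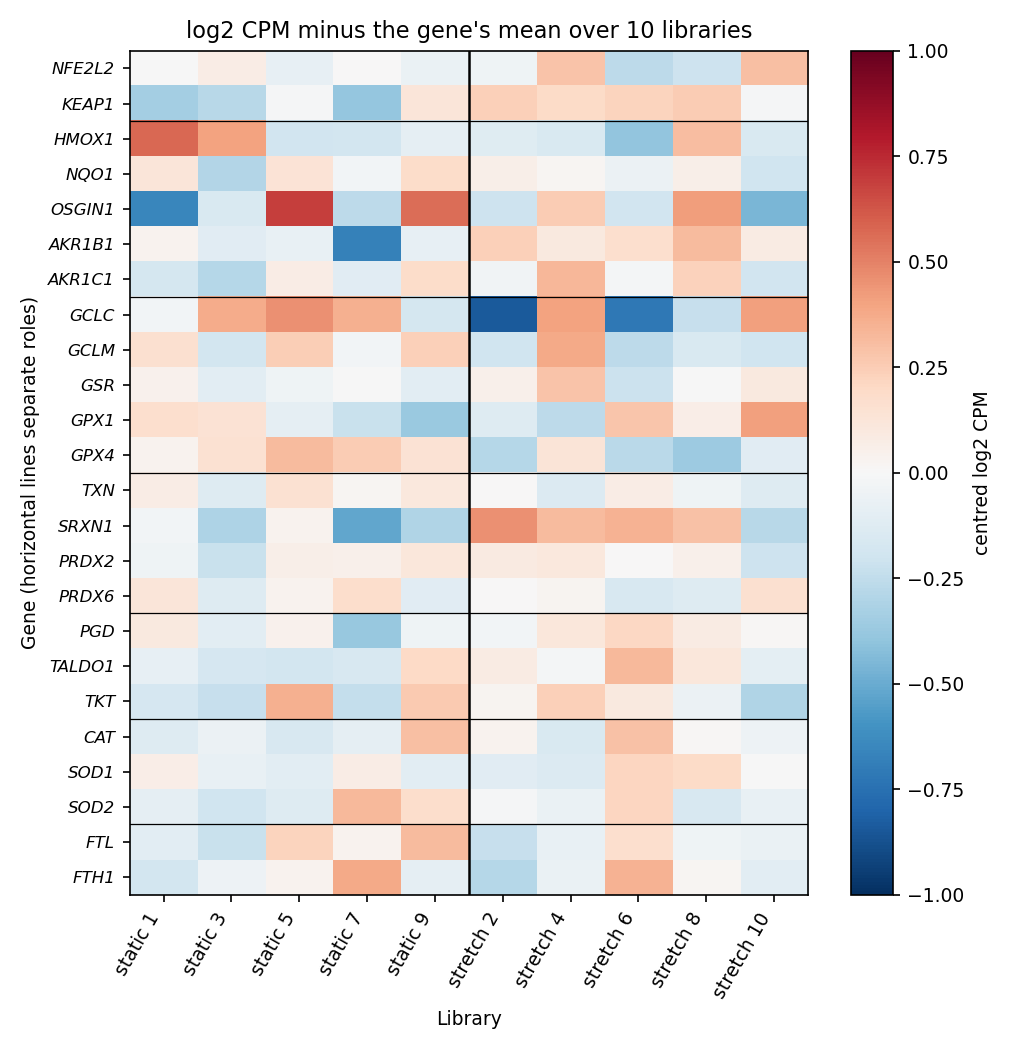
Centred log2 CPM (colour, red above and blue below the gene's mean over 10 libraries) of the 24 tested members (rows, by role) in static and stretch libraries (columns, split by the black line). GCLC in stretch 2 and 6 and OSGIN1 in static 1 and 5 show some of the strongest colours, while SRXN1 and KEAP1 are red in stretch 2, 4, 6 and 8.

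Beyond the members, 102 other genes of the same systems were listed by role, of which 96 were in the table and 86 tested. In edgeR 0 of 86 passed an adjusted p of 0.05, and 16 had an unadjusted p under 0.05 (18.6%, beside 16.4% of all genes tested). Of these 16, 3 were higher with stretch medium and 13 lower, where over all genes tested 8.08% were higher and 8.37% lower. DESeq2 gave an adjusted p to 78 of these genes and called 4 (5.13%), TXNIP, BLVRA, CHAC1 and NFE2L3, each lower with stretch medium. Over all genes DESeq2 called 2.86%, 126 higher and 143 lower. The lists were written with earlier results of these data known, and no set test was made.

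Of the 27 other glutathione genes tested, 0 were higher and 5 lower at an unadjusted p under 0.05, with a median log2 fold change of -0.13. SLC7A11, the cystine importer that feeds glutathione synthesis and a target of both NRF2 and ATF4, was at 175, 161, 182, 162 and 132 CPM with static medium and 126, 158, 96.3, 146 and 100.1 CPM with stretch medium. Stretch 4 and 8 overlapped the static range. Its log2 fold change was -0.37 ± 0.14 (edgeR, adjusted p = 0.213). GLRX, a glutaredoxin that removes glutathione from proteins, was at -0.40 ± 0.12 (adjusted p = 0.141). CHAC1, which degrades glutathione, was at -0.79 ± 0.21, and GGCT at -0.36 ± 0.14.

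Among 14 other thioredoxin-fold and methionine repair genes tested, 1 was higher and 2 lower at an unadjusted p under 0.05. TXNIP, which binds and inhibits thioredoxin, was at 203, 159, 148, 194 and 154 CPM with static medium and 128, 93.9, 137, 102 and 124 CPM with stretch medium. The groups did not overlap, as for 3.72% of all genes tested. On the log2 scale TXNIP was at -0.55 ± 0.13 (adjusted p = 0.0995 in edgeR and 0.0111 in DESeq2). The mitochondrial thioredoxin reductase TXNRD2 was at 32.7, 36.7, 29.98, 24.7 and 29.7 CPM and 42.3, 34.1, 50.8, 39.5 and 43.8 CPM. Stretch 4 was within the static range and the other stretch libraries above it, a log2 fold change of 0.45 ± 0.14 (edgeR, adjusted p = 0.141). Sestrin SESN1, a p53 target, was at -0.39 ± 0.13.

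Of 19 other detoxification, haem and iron genes tested, 0 were higher and 4 lower at an unadjusted p under 0.05. BLVRA, the biliverdin reductase that works after HMOX1 in haem breakdown, was at 113, 118, 148, 128 and 117 CPM with static medium and 52.0, 105, 78.6, 81.9 and 91.0 CPM with stretch medium. The groups did not overlap, and stretch 2 was the lowest. On the log2 scale BLVRA was at -0.61 ± 0.15 (adjusted p = 0.109 in edgeR and 0.0145 in DESeq2). The iron exporter SLC40A1 (-0.42 ± 0.15) did not overlap between groups either. TXNIP, BLVRA and SLC40A1 were the only such genes of the 86 tested from the wider lists. Over all genes tested the share without overlap was 3.72%, so this is near the background. Ferrochelatase FECH, the last enzyme of haem synthesis, was at -0.58 ± 0.20, and the prostaglandin reductase PTGR1 at -0.34 ± 0.14.

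Of the 11 NRF2 partners, relatives and repressors tested, 2 were higher and 1 lower at an unadjusted p under 0.05. The relatives NFE2L1 and NFE2L3 lay on opposite sides, at 0.43 ± 0.19 and -0.44 ± 0.13, with adjusted p of 0.283 and 0.129 in edgeR. NFE2L3 was at 41.3, 38.9, 32.3, 47.4 and 42.2 CPM with static medium and 28.3, 27.1, 33.4, 29.1 and 30.3 CPM with stretch medium, and only static 5 and stretch 6 overlapped. MAFK, a small MAF partner of NRF2, was at 0.54 ± 0.24. CUL3, the ubiquitin ligase scaffold that KEAP1 recruits, was at 0.067 (-0.16 to 0.29), and BACH1, which represses HMOX1, at -0.22 (-0.56 to 0.13). Of the 10 other NADPH supply genes tested, ME2, a mitochondrial malic enzyme, was lower at -1.01 ± 0.34, at levels of 0.825 to 3.92 CPM near the floor.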

How the data were processed

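Trizol extraction and an Ion AmpliSeq transcriptome kit, which amplifies short targets, are named per the labels' protocols. As no molecular identifiers are mentioned, floors cover counting error alone. The submitters' processing notes list fastp 0.20.1, Salmon 1.9 and hg38/GRCh38. Tool roles, annotation, strand and rounding were not given in the sources used here. Each value the authors deposited is a whole-number count for 1 gene, not scaled, and each gene was above 0 in at least 5 libraries. Current symbols matched 13625 identifiers, 234 more were named from GENCODE release 29 (GRCh38), and positions come from that release.

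Genes were filtered with filterByExpr (minimum count 10, minimum total 15), scaled by TMM and tested with edgeR 4.0.16 in R 4.3.3 by the quasi-likelihood test, stretch against static medium, with Benjamini-Hochberg adjustment over 10968 genes and a threshold of 0.05. Standard errors and 95% intervals were derived from the test's F value. CPM use TMM library sizes. Log2 CPM, used for spread and the heat map, have a prior count of 2. Alternatives were DESeq2 1.42.0 and its size factors, limma-voom (limma 3.58.1), no filter, a threshold of 0.1, each library left out, and, added after seeing the data, members merged with their pseudogenes. The methods were tested on simulated counts with planted log2 changes, all larger in size than those of the members. That simulation cannot show how well changes as small as the members' would be found. Chi-square divided by its degrees of freedom was 5.75 to 23.0 for pairs within a group, so no pair agreed within sampling noise; this does not tell separate cultures from separate preparations.

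Members and lists were chosen with earlier results of these data known. Library values were given for members with an unadjusted p under 0.05 or groups that did not overlap and for NFE2L2, KEAP1, HMOX1, NQO1, GCLM, TXNRD1, SRXN1, FTH1 and FTL. From each wider list up to 4 genes with an unadjusted p under 0.05 were named, taken in order of p. NOX4, of the list with oxidant-producing enzymes, was named outside this rule. Library values of GCLC, GSTP1, SLC7A11, TXNIP, TXNRD2, BLVRA and NFE2L3, and the genes CUL3 and BACH1, were chosen after values were seen. Shares of counts within the AKR1C family were planned and could not be formed from AKR1C1 alone.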

Additional observations from a re-analysis of the deposited data

Results flagged for a closer look

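In 6 of the 48 sets of 5 libraries (24 members in 2 groups), the lowest or highest library stood apart from the other 4 by over 0.71 of the whole range. Chance gives about 1 in 20 such sets, and over all genes tested 5.81% of 21936 sets stood apart in this way. The sets share the same 10 libraries and are not independent. Stretch 10 was low for KEAP1, at 68.9 CPM against 79.5 to 82.7 CPM in the other stretch libraries, and for SRXN1, at 15.7 CPM against 23.5 to 26.2 CPM. Stretch 4 was high for GCLM, at 41.4 CPM against 26.4 to 28.4 CPM. Static 7 was low for AKR1B1, at 196 CPM against 289 to 319.8 CPM in the other static libraries. Static 9 was high for the transaldolase gene TALDO1, at 828 CPM against 633 to 678 CPM, and for catalase CAT, at 73.5 CPM against 53.3 to 57.3 CPM.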

How the results depend on the processing

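No paired analysis was made. The groups share no title number, and whether neighbouring odd and even numbers mark pairs is not known here. Over all genes, edgeR called 0; DESeq2 called 269 (126 higher, 143 lower), limma-voom 1, and a threshold of 0.1 in edgeR 61 (16 higher, 45 lower). With 1 library left out edgeR called 0 to 39 genes, 39 of them without stretch 4. At a threshold of 0.05 no alternative called a member, nor did a threshold of 0.1 in edgeR's fit of 10 libraries. The threshold of 0.1 was not applied to the other alternatives. Adjusted p under 0.1 arose in DESeq2 for GPX4 (0.0645), KEAP1 (0.0854) and SRXN1 (0.0861). In edgeR without stretch 4 the adjusted p of GPX4 was 0.0682. The count of members at an unadjusted p under 0.05 was 4 in the fits with 10 libraries and 4 to 6 with 1 left out, and KEAP1, SRXN1, AKR1B1 and GPX4 were among them in all 10 of those fits. As those fits share most libraries with the fit that picked these 4, this is no separate evidence. Of the 24 members, 16 kept their direction in all alternatives and 8 did not. With 1 library left out, log2 fold changes ran from -0.029 to 0.12 for NFE2L2, -0.28 to 0.071 for OSGIN1, -0.036 to 0.066 for PRDX2, -0.088 to 0.0013 for PRDX6, -0.071 to 0.093 for TKT, -0.019 to 0.15 for CAT, -0.11 to 0.041 for SOD2 and -0.13 to 0.069 for FTH1. In limma-voom TKT was at 0.0080. The intervals of these 8 spanned 0 in the fit of 10 libraries. Among the tested members OSGIN1 was nearest to the floor, at 2.42 to 6.61 CPM against 0.354 to 0.679 CPM for 3 counts.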

Other observations

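Enzymes that produce oxidants were listed together with some others, the superoxide dismutase SOD3 among them. Of the 12 genes of this mixed list, 10 were in the table and 5, SOD3 included, were tested. Of these, 0 had an unadjusted p under 0.05 in edgeR. NOX4, the NADPH oxidase linked to myofibroblast formation, had a mean of 6.76 ± 2.26 CPM with static medium and 6.08 ± 1.22 CPM with stretch medium (SD, n = 5 each). On the log2 scale NOX4 was at -0.19 (-0.68 to 0.31, edgeR, adjusted p = 0.722).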
